A study of Mus musculus with 8 samples.

Results

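The genes described here are 44 regulators and markers of the first cell lineages of the mouse embryo, chosen by name for their known roles: 14 neural, 13 mesoderm, 10 endoderm and 7 trophoblast genes. They were taken from 21523 protein-coding genes that had a replication timing score at their midpoint, and all 44 had one. The score came from Repli-seq, in which cells take up the nucleotide analogue BrdU for 2 h, an early and a late S phase fraction are sorted, and the DNA made during the pulse is sequenced from each. The cells were mouse embryonic stem cells in 2 groups: dTAG, collected 2 days after addition of the degrader dTAG, which sends a protein carrying a matching tag, here the zinc finger factor YY1, to the proteasome, and control. Each group had 2 profiles, numbered 1 and 2, each made from an early and a late fraction, so 8 samples stand behind 4 profiles. For culture and treatment the labels point to earlier published work, and the sources used here do not give strain, clone or dose. YY1 protein and gene expression were not measured, and nothing in the labels says that replicates came from separate cultures.

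In mammals, genes in open, transcribed chromatin tend to replicate early in S phase and genes in compact chromatin tend to replicate late, in domains that usually span many genes. Lineage regulators are mostly silent in embryonic stem cells, many with CpG-rich promoters held by Polycomb complexes, and some change their replication time when the cells differentiate. The members named here sit at the branches of that process. Neural genes mark ectoderm that turns to brain and spinal cord, mesoderm genes the cells of heart, muscle and vessels, endoderm genes the yolk sac, gut and liver, and trophoblast genes the placenta.

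The sources used here do not state the direction of the score, and values above 0 were read as early. Of the ribosomal protein genes, a housekeeping group, 79 of 80 scored above 0, and of the olfactory receptor genes, silent outside the nose, 372 of 1105 did. The 9 stem cell marker genes, among them Pou5f1, Nanog, Dppa2 and Dppa4, had mean scores of 2.84 to 3.92, which gives their timing and not their expression. The samples of dTAG 1 carry letters in their titles that contradict the fraction given in the labels, but the dTAG 1 profile correlated with the other 3 at r = 0.982 to 0.994 over the members (genes of 1 genome, not independent replicates), so its direction was not turned. The replicate numbers had mirrored distributions, with mean scores of 0.20 over all positions in both number 1 profiles and -0.20 in both number 2 profiles. Of the members, 37 of 44 scored lower in replicate 2 than in replicate 1 in both groups, as did 72.1% of all genes. Differences are therefore also given within each replicate number. The table holds scores without counts, and its depth is unknown.

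Most of the 44 regulators replicated early in these stem cells, and their division into early and late genes was nearly the same in every profile. The score was above 0 in 35 members in dTAG 1, 34 in dTAG 2, 36 in control 1 and 34 in control 2. By the mean over the 4 profiles 34 were early and 10 late, and the same 34 were early in each profile. Early genes made up 77.3% of the members and 79.7% of all genes. The median of the members' mean scores was nonetheless lower, at 2.60 against 3.25 for all genes, and 28 of 44 members lay below the median gene. By role, 7 of 7 trophoblast, 11 of 13 mesoderm, 7 of 10 endoderm and 9 of 14 neural genes were early, with median scores of 3.97, 2.97, 1.72 and 2.52. These groups are small, and their order is a description of the genes chosen.

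**Figure D1:**
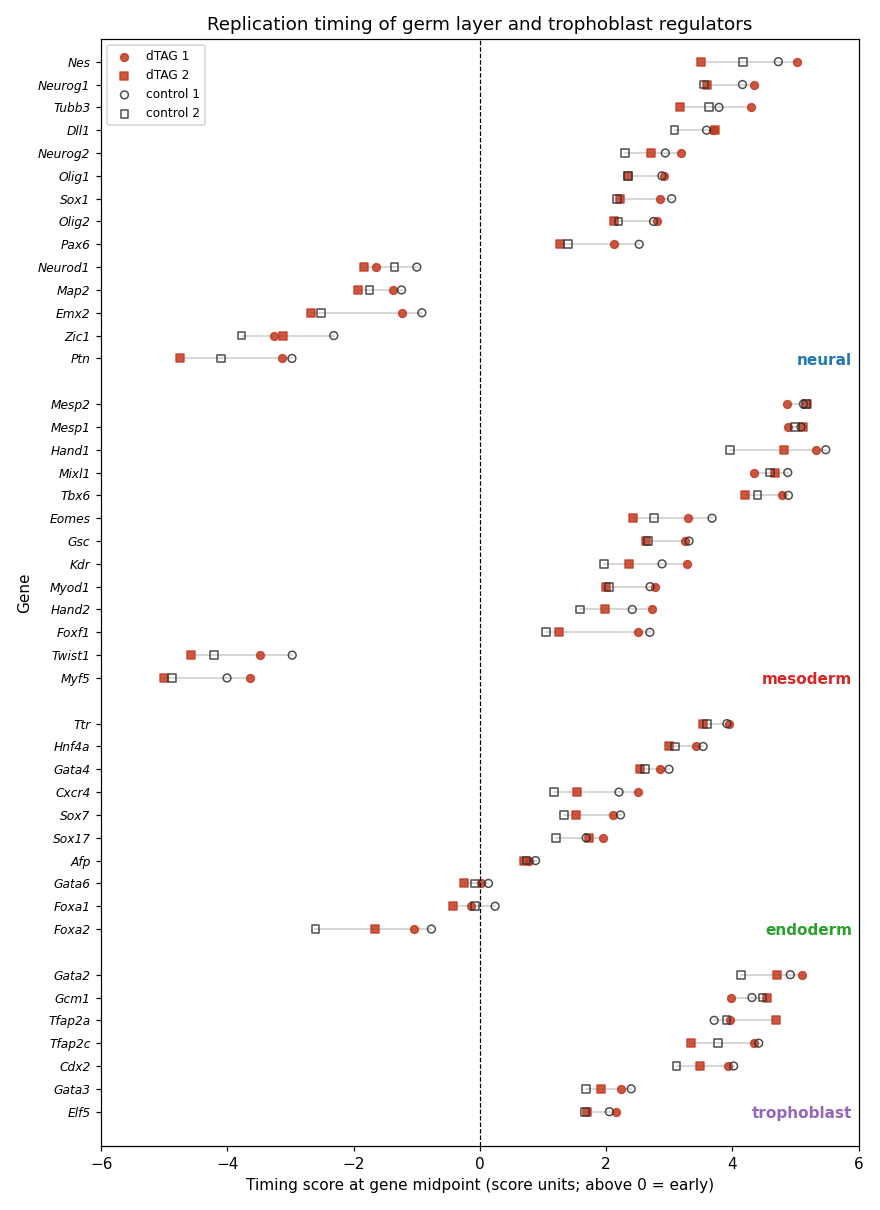
Timing score at the midpoint of each of the 44 members (x axis, score units) in the 4 profiles, with dTAG filled, control open, replicate 1 as circles and replicate 2 as squares, in 4 role groups ordered by mean score. The grey line spans the 4 values, and the 10 late genes, left of the dashed line at 0 or next to it, are 5 neural, 2 mesoderm and 3 endoderm genes.

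The neural genes with the highest mean scores were Nes, Neurog1, Tubb3, Dll1 and Neurog2, all of them early. Nes, the intermediate filament of neural progenitors, scored 5.03 and 3.51 in the dTAG profiles and 4.73 and 4.16 in the controls, the highest mean of the group at 4.36. Neurog1, a proneural basic helix-loop-helix factor, scored 4.35 and 3.60 in dTAG and 4.16 and 3.55 in control. Its relative Neurog2 scored 3.19 and 2.71 in dTAG and 2.94 and 2.29 in control. Dll1, a ligand of the Notch receptor that the proneural factors switch on, scored 3.69 and 3.72 in dTAG and 3.59 and 3.08 in control, so both dTAG values lay above both control values. Tubb3, a tubulin of neurons, scored 4.30 and 3.17 in dTAG and 3.79 and 3.63 in control. At Nes, Neurog1, Neurog2 and Tubb3 the groups overlapped.

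The other early neural genes had lower mean scores. Sox1, among the first markers of neuroectoderm, scored 2.85 and 2.23 in dTAG and 3.04 and 2.17 in control. Pax6, a homeodomain factor of eye and forebrain, was the lowest early neural gene, at 2.13 and 1.27 in dTAG and 2.52 and 1.39 in control. Olig1 and Olig2, factors of the oligodendrocyte lineage whose midpoints lie 43.7 kb apart on chromosome 16, are read from nearly the same smoothed signal. Olig2 scored 2.81 and 2.13 in dTAG and 2.75 and 2.20 in control, and Olig1 scored 2.92 and 2.34 in dTAG and 2.88 and 2.35 in control. In all 4 of these genes the number 1 profiles were high, the number 2 profiles low, and the groups overlapped.

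The remaining 5 neural genes were late in all 4 profiles. Ptn, which encodes the secreted growth factor pleiotrophin, was the latest of them, at -3.13 and -4.76 in dTAG and -2.98 and -4.10 in control. Zic1, a zinc finger factor of the neural plate border and cerebellum, scored -3.27 and -3.13 in dTAG and -2.32 and -3.78 in control. The spread between the Zic1 controls exceeded the gap between the groups, and its difference had opposite signs within the replicate numbers, at -0.95 and 0.65. Emx2, a homeodomain factor of the developing cortex, scored -1.24 and -2.68 in dTAG and -0.92 and -2.52 in control. Map2, a microtubule protein of dendrites and the longest member at 267 kb, scored -1.38 and -1.94 in dTAG and -1.24 and -1.75 in control. Neurod1, a helix-loop-helix factor of neuronal and pancreatic endocrine differentiation, scored -1.65 and -1.83 in dTAG and -1.0 and -1.35 in control. Here both dTAG values lay below both controls, with a gap of 0.29 between the nearest values, the widest of any member.

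Mesoderm genes spanned the whole scale and held both the earliest and the latest members. Mesp1 and Mesp2, helix-loop-helix factors of the earliest heart mesoderm and of somite formation, lie 19.2 kb apart on chromosome 7. Mesp2 scored 4.87 and 5.19 in dTAG and 5.13 and 5.17 in control, and Mesp1 scored 4.89 and 5.12 in dTAG and 5.09 and 4.99 in control, which placed both above 99% of all genes (percentiles 99.5 and 99.2). Hand1, a factor of heart and of trophoblast giant cells, followed at 5.33 and 4.82 in dTAG and 5.48 and 3.97 in control, with control 2 standing below the other 3 values. The primitive streak factor Mixl1 scored 4.33 and 4.67 in dTAG and 4.88 and 4.60 in control. The paraxial mesoderm factor Tbx6 scored 4.79 and 4.2 in dTAG and 4.89 and 4.40 in control. These 5 were the only mesoderm members above the median gene.

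The other early mesoderm genes scored between 1.88 and 3.04 on average. Eomes, a T-box factor needed in both the primitive streak and the trophoblast, scored 3.30 and 2.43 in dTAG and 3.68 and 2.76 in control. Gsc, a homeodomain factor of the organizer, scored 3.25 and 2.63 in dTAG and 3.31 and 2.67 in control. Kdr, the receptor for vascular endothelial growth factor, scored 3.28 and 2.37 in dTAG and 2.89 and 1.96 in control, higher with dTAG in each replicate number. Hand2, a factor of heart and limb, showed the same order, at 2.73 and 1.98 in dTAG and 2.41 and 1.59 in control. Foxf1, a forkhead factor of visceral mesoderm, scored 2.51 and 1.26 in dTAG and 2.69 and 1.05 in control, so that its profiles differed more between replicate numbers than between groups. Myod1, which can turn other cells into muscle, scored 2.77 and 1.99 in dTAG and 2.70 and 2.05 in control. The groups overlapped at every one of these 6 genes.

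The 2 late mesoderm genes were the latest members of all. Myf5, the other early-acting muscle determination factor, scored -3.65 and -5.0 in dTAG and -4.01 and -4.88 in control, and 0.55% of all genes had a mean score as low or lower. Twist1, a factor of mesenchyme, scored -3.48 and -4.58 in dTAG and -2.97 and -4.22 in control. At both genes the number 2 profiles were the lower ones, and the groups overlapped.

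Endoderm genes had the lowest median of the 4 role groups and made up 4 of the 6 members nearest the boundary at 0. Ttr, the carrier of thyroid hormone and retinol and a marker of visceral endoderm and liver, scored 3.95 and 3.54 in dTAG and 3.91 and 3.60 in control. Hnf4a, a nuclear receptor of the same tissues, scored 3.43 and 3.0 in dTAG and 3.54 and 3.09 in control. Gata4, a zinc finger factor of primitive endoderm and heart, scored 2.85 and 2.53 in dTAG and 3.0 and 2.62 in control. Ttr and Hnf4a were the only endoderm members above the median gene. Cxcr4, a chemokine receptor used to sort definitive endoderm, scored 2.50 and 1.53 in dTAG and 2.20 and 1.18 in control. Sox7 and Sox17 are related HMG-box factors of endoderm and vessels. Sox7 scored 2.12 and 1.53 in dTAG and 2.23 and 1.34 in control, with overlapping groups. Sox17 scored 1.95 and 1.72 in dTAG and 1.68 and 1.21 in control, and its lower dTAG value stood 0.04 above its higher control.

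At the boundary between early and late, Afp, the fetal serum protein alpha-fetoprotein, was the member nearest above 0, at 0.78 and 0.70 in dTAG and 0.88 and 0.74 in control, followed by Sox17 and Sox7 with means of 1.64 and 1.80. The nearest below 0 were Gata6, Foxa1 and Neurod1, with means of -0.04, -0.10 and -1.46. Gata6, the factor that starts the primitive endoderm, scored 0.02 and -0.24 in dTAG and 0.14 and -0.07 in control. Foxa1, a forkhead factor that can bind closed chromatin, scored -0.14 and -0.43 in dTAG and 0.24 and -0.07 in control. These 2 genes were the only members whose sign was not the same in all profiles. Foxa2, the partner of Foxa1 in endoderm and floor plate, was late in all 4, at -1.05 and -1.67 in dTAG and -0.77 and -2.61 in control, where control 2 stood lowest.

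All 7 trophoblast genes were early in all 4 profiles. Gata2, a factor of trophoblast and blood stem cells, scored 5.10 and 4.70 in dTAG and 4.92 and 4.14 in control. Gcm1, the factor of the syncytiotrophoblast, scored 3.98 and 4.56 in dTAG and 4.31 and 4.48 in control. Tfap2a and Tfap2c encode AP-2 factors, of which Tfap2c also acts in trophoblast stem cells and germ cells. Tfap2a scored 3.97 and 4.69 in dTAG and 3.71 and 3.91 in control, with dTAG 2 well above the other 3 values. Tfap2c scored 4.34 and 3.34 in dTAG and 4.42 and 3.77 in control, with overlapping groups. Cdx2, the factor that sets trophectoderm apart from the inner cell mass, scored 3.93 and 3.49 in dTAG and 4.02 and 3.12 in control. Gata3 and Elf5, which act with it or after it, were the lowest of the group. Gata3 scored 2.23 and 1.92 in dTAG and 2.40 and 1.69 in control, and Elf5, a factor of trophoblast stem cells, scored 2.16 and 1.70 in dTAG and 2.05 and 1.67 in control.

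Some related factors with overlapping roles had scores far apart. Myf5 minus Myod1 ranged from -7.0 to -6.42 score units over the 4 profiles. Neurod1 lay below Neurog1 in every profile (Neurod1 minus Neurog1, -5.99 to -4.90) and below Neurog2 (Neurod1 minus Neurog2, -4.84 to -3.65). Hand1 exceeded Hand2 by 2.37 to 3.07, Gata4 exceeded Gata6 by 2.69 to 2.86 and Gata2 exceeded Gata3 by 2.45 to 2.87. For Sox7 against Sox17 and Tfap2a against Tfap2c the order was not the same in all profiles. These pairs were chosen after the values were seen. Mean scores over all members ran from -4.38 to 5.09, so wide gaps are not particular to related factors. Unrelated pairs were not counted.

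The samples set dTAG, directed at YY1, against control, and no member passed the test between the 2 groups. limma, fitted without the replicate number on all 21523 genes and adjusted by Benjamini-Hochberg, called 0 of 44 members and 0% of all genes, and the smallest adjusted p of any member was 0.9999. At an unadjusted p under 0.05 it had 0 members, beside 0.794% of all genes. The median dTAG minus control difference over the members was -0.02 score units, as over all genes. Its size was under 0.5 in 42 of 44 members and in 89.9% of all genes. The median SE of a member's difference was 0.41 in this fit. With 4 profiles an exact permutation test over profiles cannot give a p below 0.333. A count of 0 from limma, at 4 profiles and a median SE of 0.41, does not show that timing was unchanged.

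In 5 members the groups did not overlap. Both dTAG values lay above both controls in 3, Dll1, Sox17 and Tfap2a, where 10.0% of all genes did so. Both lay below in 2, Neurod1 and Foxa1, beside 8.42% of all genes. With a gap of at least 0.25, 0 members were higher (1.68% of all genes) and 1, Neurod1, was lower (2.46%). These shares are near the background or below it. The counts depended on the scaling: with all profiles set to 1 distribution, 5 members lay above and 5 below without overlap, beside 11.6% and 13.7% of all genes. Both differences within the replicate numbers were positive in 10 members, beside 25.3% of all genes, negative in 15, beside 30.6%, and of opposite sign in 19.

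The differences at these genes, none of which passed, were as follows. Neurod1 (chr2:79452637-79456636 on mm10) averaged -1.74 ± 0.13 in dTAG and -1.18 ± 0.25 in control (SD, n = 2 profiles each), a difference of -0.56 with an SE of 0.33, made up of -0.65 and -0.48 within replicate numbers 1 and 2. Foxa1 (chr12:57540628-57548029) averaged -0.28 ± 0.21 in dTAG and 0.08 ± 0.22 in control. Its difference of -0.37, with an SE of 0.33, was nearly equal in the replicate numbers, at -0.38 and -0.36. Tfap2a (chr13:40713802-40738238) averaged 4.33 ± 0.51 in dTAG and 3.81 ± 0.14 in control, a difference of 0.52 with an SE of 0.39. The values within the replicate numbers were 0.26 and 0.78, so dTAG 2 gave the larger part. Without dTAG 2 the difference was 0.16, where the median over all genes was 0.20, and without dTAG 1 it was 0.88, where that median was -0.28. Sox17 (chr1:4490928-4497426) averaged 1.84 ± 0.16 in dTAG and 1.44 ± 0.34 in control. Its difference was 0.39 with an SE of 0.35, made up of 0.27 and 0.52 within the replicate numbers. Dll1 (chr17:15367354-15376932) averaged 3.70 ± 0.02 in dTAG and 3.34 ± 0.36 in control. Its difference was 0.37 with an SE of 0.34, made up of 0.10 and 0.63.

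In the remaining groups the members with the highest and lowest moderated statistic were Kdr and Twist1 for mesoderm, and Tfap2c had the lowest of the trophoblast genes. Kdr (chr5:75932827-75979072) averaged 2.82 ± 0.65 in dTAG and 2.42 ± 0.65 in control, a difference of 0.40 with an SE of 0.51 that was 0.40 and 0.41 within the replicate numbers. Twist1 (chr12:33957671-33959831) averaged -4.03 ± 0.78 in dTAG and -3.59 ± 0.88 in control, a difference of -0.44 with an SE of 0.61. Tfap2c (chr2:172545678-172558622) averaged 3.84 ± 0.71 in dTAG and 4.10 ± 0.45 in control, a difference of -0.25 with an SE of 0.48. Without dTAG 2 this difference became 0.25, where the median over all genes was 0.20. Relative to that median, leaving out 1 profile moved Kdr between 0.16 (without control 2) and 0.67 (without control 1), and Twist1 between -0.84 (without control 2) and -0.01 (without control 1).

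**Figure D2:**
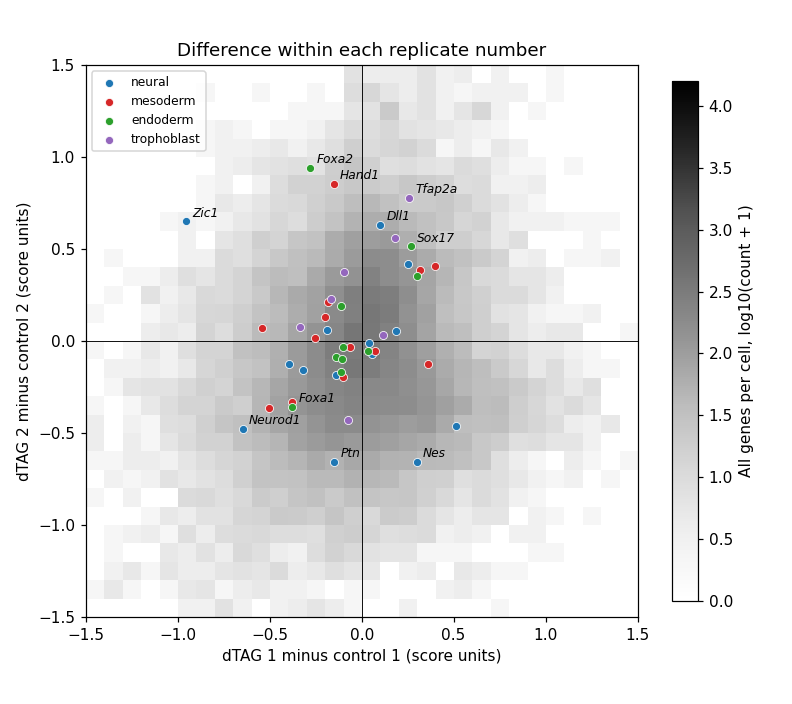
Difference of dTAG minus control in replicate number 1 (x axis) and in replicate number 2 (y axis), in score units, for the 44 members coloured by role, over a grey grid of the counts of all genes on a log10 scale. The members lie within the cloud of all genes, with Neurod1 and Foxa1 at lower left, Tfap2a, Sox17 and Dll1 at upper right, and 19 members in the quadrants where the replicate numbers gave opposite signs.

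The late members stood below control with dTAG more often than all late genes did, and the early members did not. This was a count over 10 genes, read from the same 4 profiles, and was not tested. Among the 34 early members the median difference was 0.01, with a median size of 0.12, against a median of -0.02 and a median size of 0.17 in all early genes. Among the 10 late members the median difference was -0.20, with -0.30 in replicate number 1 and -0.18 in replicate number 2, and the median size was 0.28. All late genes had a median difference of -0.02 and a median size of 0.26. The dTAG value was below control within both replicate numbers in 7 of 10 late members, where 32.4% of all late genes showed this. It was above control in 0 of 10, where 30.2% of all late genes did. Of the late olfactory, vomeronasal and trace amine receptor genes, 986 in number, 18.9% were below and 45.1% above, with a median difference of 0.15. Without them 36.4% of late genes were below and 25.8% above, with a median difference of -0.07. The 7 late members lower with dTAG were Ptn, Emx2, Map2, Neurod1, Twist1, Foxa1 and Gata6. The exceptions were Zic1, Myf5 and Foxa2, whose replicate numbers disagreed. Late was set by the mean of all 4 profiles, dTAG included, so a lower dTAG value itself moves a gene towards late. Foxa1 and Gata6 had control means above 0, at 0.08 and 0.03, and were late only through their dTAG values. The median SE over the late members was 0.57, and leaving out 1 profile moved their median difference, relative to all genes, from -0.44 without control 2 to -0.021 without control 1, with -0.26 without dTAG 1 and -0.09 without dTAG 2. In early members the corresponding counts were 8 of 34 below within both replicate numbers and 10 of 34 above, beside 30.1% and 24.1% of all early genes.

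A list of 91 further lineage genes that are not members was also mostly early, but its role groups had another order. It was made of 26 neural, 26 mesoderm, 20 endoderm and 20 trophoblast genes, with the signal protein gene Bmp4 in both the mesoderm and the trophoblast list. Of the 91 genes 75 were early (82.4%), and by list 20 of 26 neural, 22 of 26 mesoderm, 18 of 20 endoderm and 16 of 20 trophoblast genes were. The median scores were 2.49 for neural, 2.55 for mesoderm, 3.60 for endoderm and 2.56 for trophoblast genes. Endoderm, the lowest role group among the members, was thus the highest here. limma called 0 of them. Their median difference was 0.00, and their groups did not overlap in 17, with dTAG higher in 11 of 91 (10.0% of all genes) and lower in 6 of 91 (8.42% of all genes). Late genes of the list included the heart and motor neuron factor Isl1 and the placental lactogen gene Prl3d1. Prl3d1 was the gene of the list with the widest gap, at -2.62 and -2.67 in dTAG and -3.28 and -3.21 in control. Of the 16 late genes 8 were lower with dTAG within both replicate numbers and 2 were higher. The trophoblast list was thus not early throughout, unlike the 7 trophoblast members.

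The surroundings of the members varied as much as their scores. On the mean of the 4 profiles, Gata2, Foxf1 and Tubb3 lay in early stretches of 7785, 6915 and 6915 kb, of which Foxf1 and Tubb3 share 1 on chromosome 8. Pax6 lay in an early stretch of 370 kb, the shortest of any member, 10 kb from a local maximum. Neurog2, Tfap2a and Gata3 stood out most from their neighbourhood, with scores 3.23, 3.15 and 2.86 above the median of the positions within 1000 kb. Hand2 and Hand1 followed at 2.69 and 2.67. In all, 15 of 44 members stood at least 1 score unit above the local median, beside 22.2% of all genes, and 12 lay within 50 kb of a local maximum, beside 15.2% of all genes. The lowest relative to their surroundings were Gata6 at -2.43 and Foxf1 at -1.80.

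Late members were of different kinds by this measure. Neurod1 lay 35 kb from a local maximum and 2.14 above its local median of -3.60, so it sat on a rise within a late stretch of 2570 kb. Foxa2 lay 10 kb from a local maximum in a late stretch of 2530 kb, and Zic1 70 kb from one in a stretch of 4830 kb. By contrast, Ptn lay 1595 kb from the nearest local maximum. Myf5 lay 355 kb from one in a late stretch of 4415 kb. Near Neurod1 the dTAG profiles ran below the controls of their own replicate number at the gene, and averaged over 50 kb on either side the difference was -0.57. Because the score is smoothed, this average is not a separate reading from the value at the midpoint.

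**Figure D3:**
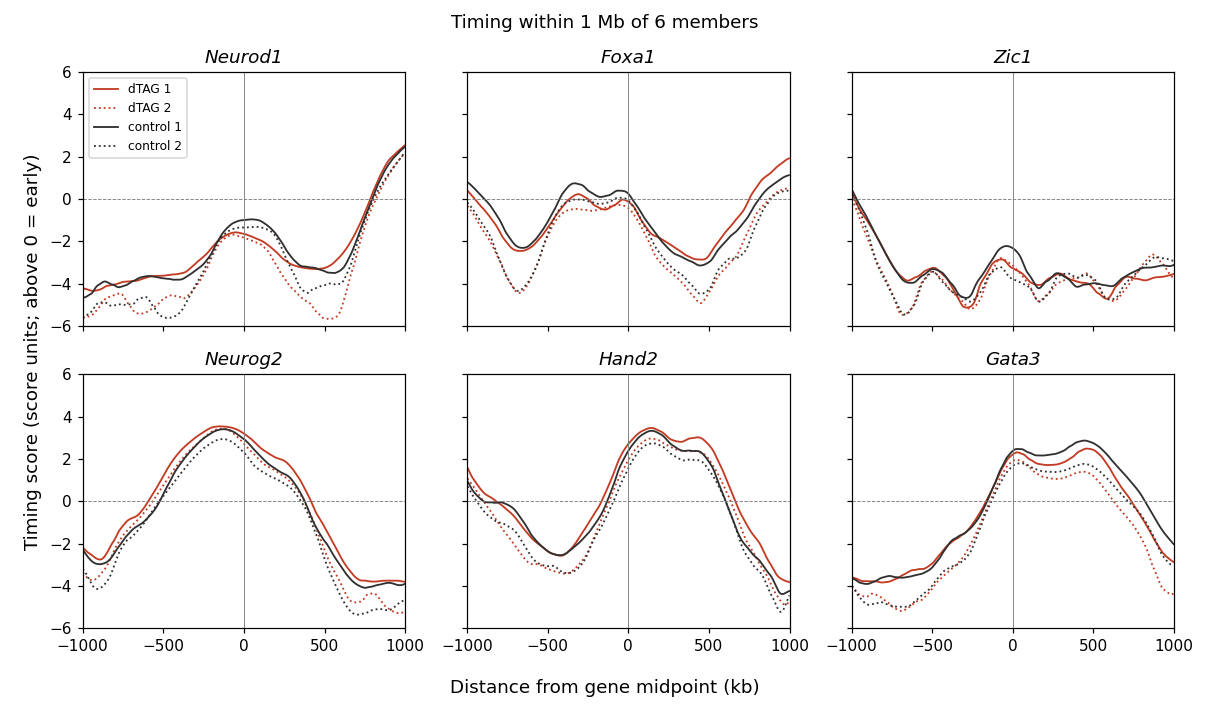
Timing score (y axis, score units) against distance from the gene midpoint (x axis, kb) for 3 late members (top) and 3 early members (bottom), with dTAG in red, control in black, replicate 1 solid and replicate 2 dotted. Neurod1 sits on a rise that stays below 0, Foxa1 at about 0, Zic1 in a late region, and Neurog2, Hand2 and Gata3 in early stretches of 935, 750 and 880 kb flanked by late sequence on both sides.

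Late members also had few genes around them and, mostly, promoters rich in CG dinucleotides. The number of other protein-coding genes within 500 kb was 1 to 6 at the 10 late members, with a median of 3.5, against a median of 9 at all late genes and 6 without olfactory, vomeronasal and trace amine receptor genes, which lie in dense clusters. Twist1 and Zic1 had 1 such neighbour each. Few neighbours were not particular to the late members. The median was 4 at the 16 late genes of the further list, and also 4 at the 9 stem cell marker genes, which were early. Early members had a median of 13 and all early genes 16, with 53 at Tbx6. Promoters, taken as 250 bases before to 50 after a gene's start, were found in the RefSeq table (GRCm38.p6, the assembly behind mm10) for 33 of 44 members, 9 of them late. The median count of CG dinucleotides was 26 in the late members' promoters and 17.5 in the early members'. It was 3 in all late genes, or 5 without the receptor genes, and 17 in all early genes. Among members role was mixed with timing, since 5 of the 9 late promoters were neural and 8 of the 24 early ones. Within roles the late and early medians were 26 and 21.5 for neural, 15 and 10 for mesoderm and 19 and 4 for endoderm genes. Mesoderm and endoderm had 2 late promoters each, and no trophoblast member was late. Twist1 and Zic1, among the latest members, had 27 and 31, while Gcm1 and Mesp1, among the earliest, had 1 and 4. Early members ranged from 1 to 37, and Gata2 and Neurog1, also early, had 32 each. Myf5 and Ptn were late with low counts of 3 and 6. The 16 late genes of the further list had a median of 5.5 over the 8 with a promoter in the table, and 1 of those 8 had 20 or more.

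The promoters printed were picked after their counts were seen, as 2 CG-rich ones of late genes and 2 CG-poor ones of early genes. Their contrast comes from this choice: the early gene Sox1 had 37 CG dinucleotides and the late gene Myf5 had 3. The printed promoters are not the ends of the range and give no rule for early or late genes. They run 5′ to 3′ on the gene's strand with each CG in capitals: Twist1 from chr12:33957421-33957720, plus strand, Zic1 from chr9:91365719-91366018, minus strand, Gcm1 from chr9:78051708-78052007, plus strand and Mesp1 from chr7:79793541-79793840, minus strand, all on GRCm38.p6.
Twist1 (late): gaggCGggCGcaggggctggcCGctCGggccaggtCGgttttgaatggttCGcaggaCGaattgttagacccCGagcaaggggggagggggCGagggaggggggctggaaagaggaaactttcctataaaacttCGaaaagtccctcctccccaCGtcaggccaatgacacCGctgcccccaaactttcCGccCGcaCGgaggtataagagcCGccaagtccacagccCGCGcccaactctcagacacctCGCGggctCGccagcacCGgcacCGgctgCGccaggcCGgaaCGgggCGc
Zic1 (late): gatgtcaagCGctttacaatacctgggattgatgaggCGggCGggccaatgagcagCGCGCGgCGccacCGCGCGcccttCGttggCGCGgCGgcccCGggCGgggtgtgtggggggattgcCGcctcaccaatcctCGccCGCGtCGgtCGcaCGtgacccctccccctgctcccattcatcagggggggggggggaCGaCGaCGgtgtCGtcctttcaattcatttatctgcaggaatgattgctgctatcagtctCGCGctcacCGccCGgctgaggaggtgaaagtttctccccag
Gcm1 (early): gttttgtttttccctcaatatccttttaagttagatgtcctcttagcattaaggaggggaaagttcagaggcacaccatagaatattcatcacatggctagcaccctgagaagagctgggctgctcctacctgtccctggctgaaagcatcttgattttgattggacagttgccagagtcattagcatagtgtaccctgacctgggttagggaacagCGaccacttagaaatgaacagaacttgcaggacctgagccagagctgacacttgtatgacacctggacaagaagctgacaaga
Mesp1 (early): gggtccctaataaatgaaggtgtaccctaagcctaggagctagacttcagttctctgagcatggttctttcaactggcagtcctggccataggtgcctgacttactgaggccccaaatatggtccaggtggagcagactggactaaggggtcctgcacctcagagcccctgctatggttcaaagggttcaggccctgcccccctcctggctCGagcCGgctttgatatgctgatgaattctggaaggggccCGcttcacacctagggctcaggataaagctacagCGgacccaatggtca
The 2 late promoters hold 27 and 31 capital pairs, and the 2 early ones hold 1 and 4.

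**Figure D4:**
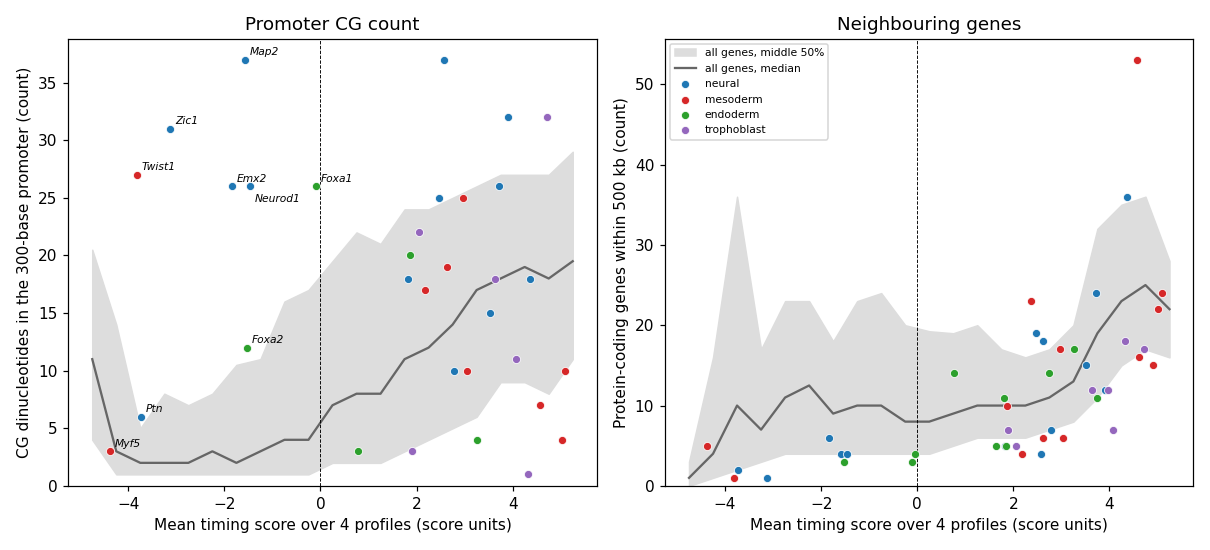
Count of CG dinucleotides in the promoter (left) and of protein-coding genes within 500 kb (right) against the mean timing score over the 4 profiles (x axis, score units), for members coloured by role over the median and middle 50% of all genes in bins of 0.5 score units with at least 20 promoters. On the left 6 of the 9 late members with a promoter, all labelled, have 26 or more CG dinucleotides, and on the right the late members have 1 to 6 neighbours.

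The letters ANATGGC, part of the motif bound by YY1 and searched on both strands, occurred in the promoters of 5 of 33 members (15.2%) and in 14.4% of all 17274 promoters of that length. The 5 were Neurod1, Emx2, Mesp2, Elf5 and Gcm1. Among early members 3 of 24 held it and among late members 2 of 9. The promoter of Neurod1, the member with the widest gap between the groups, is shown from chr2:79456587-79456886, minus strand (GRCm38.p6), with the match in capitals.
Neurod1: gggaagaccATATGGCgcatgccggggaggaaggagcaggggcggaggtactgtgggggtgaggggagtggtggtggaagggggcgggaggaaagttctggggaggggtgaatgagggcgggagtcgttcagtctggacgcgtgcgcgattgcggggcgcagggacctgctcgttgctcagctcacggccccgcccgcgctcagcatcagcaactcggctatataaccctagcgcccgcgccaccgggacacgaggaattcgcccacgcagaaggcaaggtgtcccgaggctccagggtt
A match of these letters is not evidence of binding.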

How the data were processed

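The deposited table holds a signed timing score per 5 kb position for each of 4 profiles. Per the file headers and name the authors smoothed the score with Loess and quantile normalized it, and the formula, log base and direction are not stated. Per the submitters' processing notes, Bowtie2, SAMtools and bedtools were used with mm10, with versions not given in the sources used here. Smoothing makes neighbouring positions share reads. Of 526745 positions, 514245 had a score in all 4 profiles and were used.

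Each protein-coding gene of RefSeq (GRCm38.p6) took the score of the position nearest its midpoint, within 2500 bases. The test of dTAG against control was limma 3.58.1, run in R 4.3.3 with group as the only term (lmFit, eBayes, 2-sided, Benjamini-Hochberg over 21523 genes, threshold 0.05). It was tested on simulated profiles with known shifts, where it recovered their signs but called none of them without the replicate block. These shifts were larger than any member's difference, so signs and calls at the size seen in the members were not tested. Stretches of 1 sign, local maxima (scipy 1.17.1, prominence 0.5) and neighbours were read from the mean of the 4 profiles in Python 3.11.15; matplotlib 3.10.9 made the plots. Of several promoters of a gene, the one nearest its outer 5′ end was used. Because nothing shows separate cultures, p-values reflect the spread between profiles alone, which may be technical.

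The members, lists and tests were chosen with earlier results of these data known, and the related pairs, the 6 genes of the profile plots and the late genes without receptor genes after the values were seen. Levels are given for all members; differences with SE are given by rule for the highest and lowest moderated statistic of each role group and for members with a gap of at least 0.25. Dll1, Sox17, Tfap2a and Foxa1 meet this rule through their statistics.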

Additional observations from a re-analysis of the deposited data

How the results depend on the processing

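limma called 0 members in all 13 settings tried: the main one, the replicate block, trended and robust variance, 3 other ways to place a gene, 3 other scalings and 4 fits without 1 profile. The call for all genes was 0 in the 9 settings with all profiles and 0 to 5 with 1 profile left out (4 without dTAG 1, 5 without dTAG 2). The labels do not say that a replicate number marks a shared day or culture. Deviations from the group means correlated between same-numbered profiles at r = 0.636 over all genes. Same-numbered profiles also shared 1 distribution, mirrored between the numbers, so this correlation does not show a shared day or culture. How much of it comes from the scaling was not tested. With all profiles set to 1 distribution the median SE of a member's difference was 0.29. The replicate block in limma called 0 genes, with 1653 genes at an unadjusted p under 0.05 against 171 without it. Neurod1 was the 1 member among them, and the smallest adjusted p of a member with the block was 0.615 by limma. The median SE of a member's difference was 0.19 with the block and 0.41 without it. Without 1 profile the median difference of all genes was -0.28 (dTAG 1), 0.20 (dTAG 2), 0.19 (control 1) and -0.22 (control 2), so differences without a profile are given relative to it.

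Early members numbered 34 to 36 with all members scored, 32 with members within 50 kb counted as 1, 24 of 33 at gene starts, and 16 with the median of all genes as the boundary. Without 1 profile they numbered 34 to 35. Non-overlapping members, 3 earlier and 2 later, numbered 1 and 2 at gene starts (10.2% and 8.51% of all genes), 5 and 5 on 1 distribution (11.6% and 13.7%), 5 and 6 with chromosome means removed (10.5% and 13.6%), and 6 and 5 with medians and SD scaled (10.1% and 13.7%). A gap of 0.25 left 0 and 1, a gap of 0.5 left 0 and 0. Without 1 profile, where fewer values must agree, there were 6 to 13 earlier (20.6% to 34.4% of all genes) and 8 later (19.0% to 30.0%).

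The median difference was -0.10 to 0.085 over members without 1 profile, -0.048 to 0.10 over early members and -0.44 to -0.021 over late members, with median sizes of 0.16 to 0.21 and 0.29 to 0.44. The median size was 0.11 (1 distribution) and 0.12 (chromosome means removed) in early members, and 0.33 at gene starts in late members. Of the named genes, Tfap2c (0.041) and Tfap2a (-0.046) changed sign relative to all genes without dTAG 2. For Tfap2a this came from the median of all genes, since its own difference was then 0.16, and for Tfap2c it did not, at 0.25. Relative to all genes, the range without 1 profile was -0.48 to 0.041 for Tfap2c and -0.046 to 1.15 for Tfap2a.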
